A study of Mus musculus with 49 samples.

Results

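The comparison was of dorsal root ganglia (DRG) of HbSS-BERK (sickle) mice with those of HbAA-BERK (control) mice, at the age of 2 months and after hypoxia/reoxygenation (H/R). Its members were the 13 libraries whose headers carry that age, that treatment and either genotype, 6 of HbSS-BERK and 7 of HbAA-BERK mice, out of 49 samples in the series and 48 columns used. HbSS-BERK mice carry human α and sickle β globin transgenes, and HbAA-BERK mice carry human α and normal β globin transgenes. Both lack the murine α and β globin genes, and by the breeding described they share a mixed genetic background. All 13 mice had been kept at 8% O2 and 92% N2 for 3 h and then in room air for 1 h. By the study's methods this was given again a week later and the ganglia were taken the day after. Sex, litter and the spinal level of the ganglia are not given in the sources used here, and nothing says whether the replicates came from separate litters. Each p-value therefore measures only the spread between these libraries.

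In sickle cell disease a changed β chain lets hemoglobin form polymers at low oxygen, red cells stiffen and break, and the marrow answers with immature red cells. H/R is used in these mice to bring on an acute pain state like that of a vaso-occlusive crisis, in which vessels are blocked and the endothelium is activated. In the DRG, nociceptors and other sensory neurons sit among satellite glia and leaky capillaries. A whole ganglion therefore gives RNA of neurons, glia, endothelium, blood cells and resident immune cells together.

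Libraries held 13.2 to 19.5 M reads in named genes, with a median of 15.5 M in HbAA-BERK and 16.4 M in HbSS-BERK mice. The 12 sensory neuron markers, all tested, summed to 14510 to 21430 CPM over the 13 libraries, where CPM is the count per 1000000 reads of a library whose total has been multiplied by its TMM factor. The 6 adult murine globin genes had 0 counted reads in all 13, but the deposited FPKM table is not at 0 for them: its mean for Hbb-b2 was 2.14 FPKM in HbAA-BERK and 4.09 FPKM in HbSS-BERK mice, and for Hbb-b1 1.38 and 0.67 FPKM. The tables disagree here, so these counts are no check of the labels. Y-linked genes gave reads in every library, summing to between 99.4 and 174 CPM. Xist, the RNA of the inactive X chromosome, stood at 0.209 CPM or less in 12 libraries and at 2.07 CPM in HbAA-BERK replicate 2. HbAA-BERK replicate 2 stood apart: it held 338 CPM of the liver gene Alb, against 6.25 CPM in the next control and at most 0.657 CPM in HbSS-BERK mice, and its 16 hepatocyte markers summed to 769 CPM against 9.74 to 35.6 CPM in the other 12 libraries. It was the only control over 20 CPM of Alb, and results are also given without it. Another library at an edge was HbSS-BERK replicate 2, in which the 21 erythroid markers in the table summed to 4193 CPM, against 1580 to 2022 CPM in the other HbSS-BERK mice and 1178 to 1628 CPM in the controls.

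Of 15217 genes tested, 24 were called between the genotypes (0.158%; edgeR quasi-likelihood test, Benjamini-Hochberg adjusted p under 0.05). Higher in HbSS-BERK mice were 10 genes (0.0657%), Hba-x, Gbp10, Alas2, Rsad2, Isg15, Pla2g2d, Zfp605, Ube2l6, Vwf and Mgll. Lower were 14 genes (0.092%), Gm14295, Gm14305, Ccl28, Fam205c, Gm7120, Hfm1, A930005H10Rik, Phtf1, Serpina3g, B3gat2, Nnt, Alg1, Coq2 and Phactr3. At an unadjusted p under 0.05 there were 730 genes higher (4.8%) and 477 lower (3.13%), together 7.93%. The 2 groups did not overlap in 19 of the 24 genes, against 0.506% of all genes tested (0.269% with HbSS-BERK mice higher and 0.237% lower). The exceptions were Hfm1, Ube2l6, Ccl28, Serpina3g and Gm7120. Just inside the threshold lay B3gat2 (adjusted p = 0.0439), and just outside it lay Kdr (0.0507) and Bpgm (0.0514), by the same edgeR test.

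Without HbAA-BERK replicate 2, 8 genes were called among 15171 tested (0.0527%), and all 8 were among the 24. Higher were Hba-x, Isg15 and Vwf (0.0198%), and lower were Gm14295, Gm14305, A930005H10Rik, Phtf1 and Alg1 (0.033%). The other 16 kept their direction, with edgeR adjusted p of at most 0.0793. The same 8 genes were those called whichever of the 13 mice was left out. The count ran from 8 to 30 when 1 mouse was left out. It was at most 13 when that mouse was a control numbered 1, 2, 3, 4 or 6, or a sickle mouse numbered 2, 3, 4, 5 or 6.

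**Figure D1:**
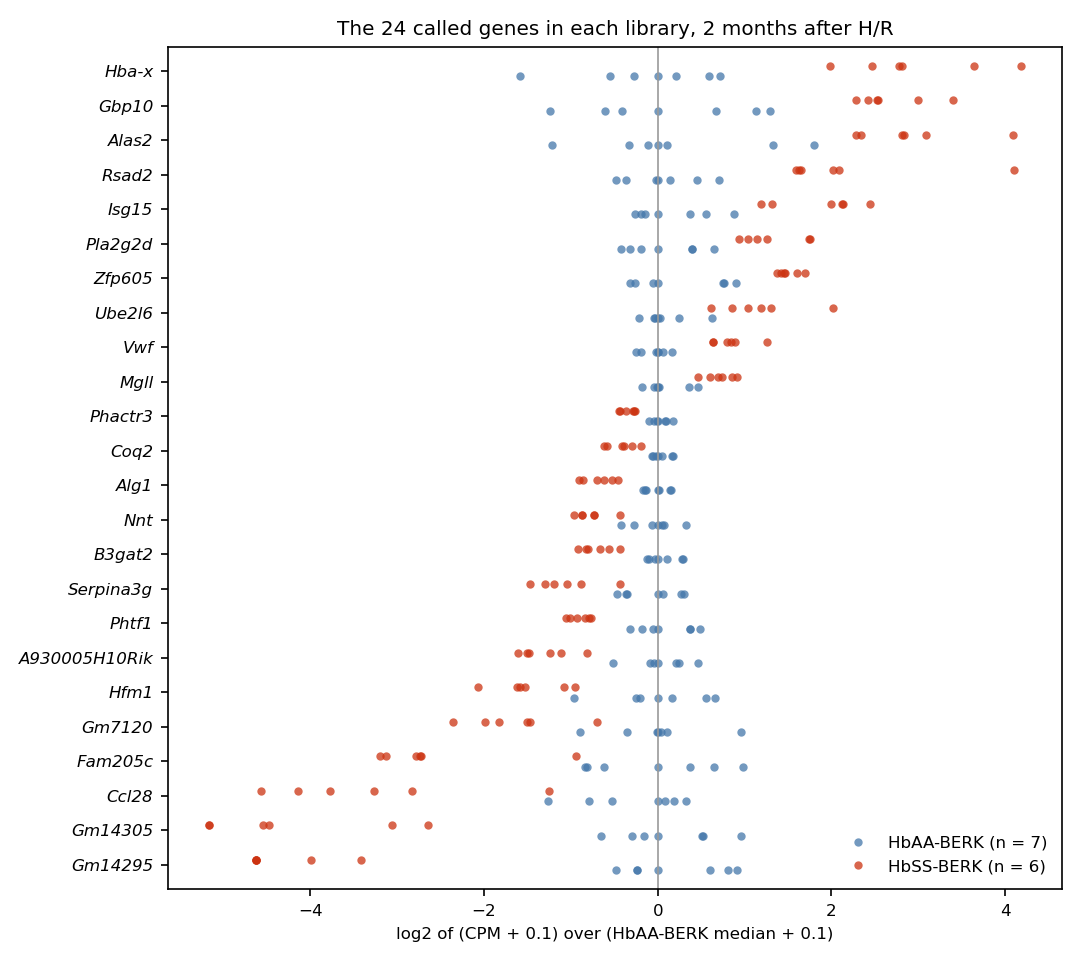
Each row is 1 of the 24 called genes and each point 1 library, placed by the log2 of (CPM + 0.1) over the HbAA-BERK median + 0.1. Blue points are the 7 HbAA-BERK mice and red points the 6 HbSS-BERK mice. Red and blue points of a gene share no range in 19 rows, and the widest gaps belong to Gm14295 and Gm14305.

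Red cell genes were among those higher in HbSS-BERK mice. In bulk RNA more cells of a type and more RNA per cell cannot be told apart. Hba-x, the embryonic ζ chain of hemoglobin in primitive red cells, had reads in every library. It stood at 0.214, 0.844 and 1.45 CPM (lowest, median and highest of 7) in HbAA-BERK mice and at 3.64, 6.45 and 17.1 CPM in HbSS-BERK mice (6). The lowest HbSS-BERK mouse lay above the highest control. Its log2 fold change was 3.26 (SE 0.41, edgeR adjusted p = 0.00329) and 3.25 without HbAA-BERK replicate 2. Alas2, the enzyme of the first step of heme synthesis in red cell precursors, stood at 14.2, 33.3 and 116 CPM in HbAA-BERK mice and at 162, 236 and 570 CPM in HbSS-BERK mice. Again the groups did not overlap, and HbSS-BERK replicate 2 held the highest value, with the next at 283 CPM. The log2 fold change was 2.51 (SE 0.45, edgeR adjusted p = 0.0439). It was 2.17 (adjusted p = 0.0914) without HbSS-BERK replicate 2 and 2.69 (adjusted p = 0.0793) without HbAA-BERK replicate 2.

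The 250 bases before the start sites of both genes are printed because erythroid factors of the GATA family are known to bind there in other genes of red cells. The letters searched, on both strands, were GATA with an A or a T before it and an A or a G after it. Capitals mark each match (RefSeq, GRCm38.p6, which is mm10, 5′ to 3′ on the strand of the gene). Alas2 lies at chrX:150547167-150547416 (+) and Hba-x at chr11:32276350-32276599 (+).
Alas2: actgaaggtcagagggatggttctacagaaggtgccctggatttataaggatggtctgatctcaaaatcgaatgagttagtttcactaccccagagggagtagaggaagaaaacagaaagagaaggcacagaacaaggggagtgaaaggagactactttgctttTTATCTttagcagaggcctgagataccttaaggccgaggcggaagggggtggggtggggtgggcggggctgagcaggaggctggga
Hba-x: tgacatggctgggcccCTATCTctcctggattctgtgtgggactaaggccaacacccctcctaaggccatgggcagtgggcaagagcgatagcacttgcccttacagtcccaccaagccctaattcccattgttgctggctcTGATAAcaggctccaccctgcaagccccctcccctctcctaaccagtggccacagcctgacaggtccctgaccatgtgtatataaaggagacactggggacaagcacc
Alas2 had 1 match, from base -86 to -81, and Hba-x had 2, from -234 to -229 and from -108 to -103. Of 32851 windows of this length, 26.5% held such a match, which is a description of the sequence and not a site. Of the other 6 genes that rose and have a window in the table, none held one. The letters CCACACCC, 1 spelling of the box of erythroid Krüppel-like factors, were in 3.2% of all windows and in neither of these. Other spellings of that box were not searched.

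Of 20 erythroid genes tested out of 22 listed, 1 rose (Alas2) and none fell. The log2 fold change was positive in 18, and 17 had an unadjusted p under 0.05, against 7.93% of all genes. Their median log2 fold change was 1.47, against 0.00 over all genes tested. Bpgm, which makes the bisphosphoglycerate that loosens the hold of hemoglobin on oxygen, stood at 29.8, 39 and 80.2 CPM in HbAA-BERK mice and at 81.1, 121 and 291 CPM in HbSS-BERK mice. The groups did not overlap, but it missed the threshold (log2 fold change 1.56, SE 0.29, edgeR adjusted p = 0.0514). Slc4a1, the anion exchanger of the red cell membrane, stood at 19, 30.5 and 114 CPM and at 99.3, 129 and 734 CPM (log2 fold change 2.15, SE 0.56, adjusted p = 0.209). Here the groups overlapped, since HbAA-BERK replicates 2 and 7 held 95.5 and 114 CPM. Those 2 controls also had the highest Alas2, 83.7 and 116 CPM. They and HbSS-BERK replicate 2 stood high in other blood cell lists as well. Neutrophil markers summed to 1315 and 1468 CPM in these controls (188 to 565 CPM in the other 5) and to 1433 CPM in HbSS-BERK replicate 2 (298 to 928 CPM in the other 5). B cell markers summed to 32.4 and 26.6 CPM in these controls and to 36.7 CPM in HbSS-BERK replicate 2, against at most 13.7 CPM in the other 10 libraries. The part of these cells in the erythroid result was not tested. The regulators Klf1, Gata1, Tal1 and Nfe2 gave log2 fold changes of 1.23, 1.32, 1.11 and 1.24 (adjusted p from 0.513 to 0.567). Of the 3 genes with the smallest changes, the transferrin receptor gene Tfrc gave 0.21 and the membrane skeleton genes Ank1 and Add2 gave -0.12 and -0.05. Both skeleton genes stood at 301 CPM or more in every library.

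The cell cycle list had no call. All 16 were tested, all 16 had a positive log2 fold change (median 0.97), and 7 had an unadjusted p under 0.05. The proliferation marker Mki67 stood at 12.8, 21.4 and 66.5 CPM in HbAA-BERK mice and at 38.5, 53.9 and 270 CPM in HbSS-BERK mice (log2 fold change 1.53, SE 0.53, edgeR adjusted p = 0.409). HbSS-BERK replicate 2 again held the highest value. The list summed to 198 and 228 CPM in HbAA-BERK replicates 2 and 7 and to 642 CPM in HbSS-BERK replicate 2, with 52.9 to 197 CPM in the other 10 libraries.

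**Figure D2:**
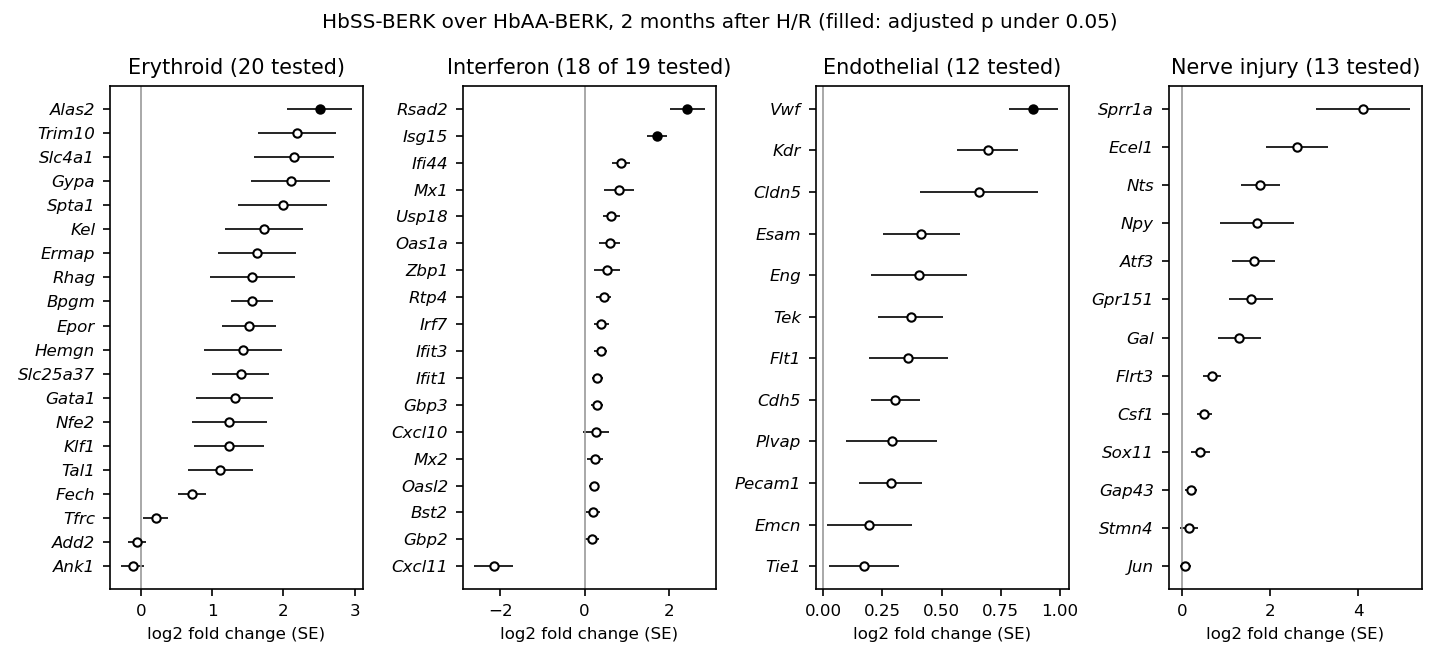
Points are the log2 fold change of HbSS-BERK over HbAA-BERK in the 13 libraries for the tested genes of 4 lists, less 1 interferon gene that is not drawn, with bars for the SE, and filled points passed an edgeR adjusted p of 0.05. Of 20 erythroid, 18 interferon, 12 endothelial and 13 nerve injury genes drawn, 1, 2, 1 and 0 are filled, while 18, 17, 12 and 13 lie to the right of 0.

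Genes of the interferon response were the next group. Isg15, a ubiquitin-like protein that is attached to other proteins during viral infection, stood at 3.97, 4.77 and 8.84 CPM in HbAA-BERK mice and at 11, 20.2 and 26.4 CPM in HbSS-BERK mice. The groups did not overlap, and its log2 fold change was 1.72 (SE 0.24, edgeR adjusted p = 0.00681). Rsad2, the antiviral enzyme viperin, stood at 6.25, 8.77 and 14.4 CPM and at 26.6, 31.8 and 152 CPM (log2 fold change 2.43, SE 0.42, adjusted p = 0.0418). HbSS-BERK replicate 2 held the 152 CPM and the next mouse 37.6 CPM. Without that library the log2 fold change was 1.72 (SE 0.19, adjusted p = 0.00261), so the other 5 mice alone gave a call. Ube2l6, the enzyme that passes Isg15 on to its targets, stood at 27.2, 31.6 and 48.9 CPM and at 48.5, 68.5 and 128 CPM (log2 fold change 1.13, SE 0.20, adjusted p = 0.0418). HbSS-BERK replicate 2 was highest in Ube2l6 too, and the 2 groups touched at their edges.

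Gbp10, of the interferon-induced guanylate-binding GTPases, had few reads, 25 in the 7 HbAA-BERK libraries and 147 in the 6 HbSS-BERK libraries. It stood at 0, 0.136 and 0.477 CPM in HbAA-BERK mice and at 1.04, 1.26 and 2.39 CPM in HbSS-BERK mice (log2 fold change 2.73, SE 0.45, edgeR adjusted p = 0.0414). Its neighbours Gbp9 and Gbp11 gave 0.96 (adjusted p = 0.0579) and 1.35 (adjusted p = 0.197). Genes of this family are close copies of each other, and how shared reads were counted is not stated, so the values of single members are uncertain.

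The windows before Isg15 and Rsad2 are printed because factors of the interferon response bind the letters GAAA, any 2 bases and GAAA again, marked by capitals on either strand (RefSeq, GRCm38.p6, 5′ to 3′ on the strand of the gene). Isg15 lies at chr4:156200819-156201068 (-) and Rsad2 at chr12:26456453-26456702 (-).
Isg15: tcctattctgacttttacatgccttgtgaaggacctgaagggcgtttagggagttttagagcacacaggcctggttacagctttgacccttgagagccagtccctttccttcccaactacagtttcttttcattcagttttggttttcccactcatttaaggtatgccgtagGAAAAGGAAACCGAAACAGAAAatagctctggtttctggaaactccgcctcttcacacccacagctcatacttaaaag
Rsad2: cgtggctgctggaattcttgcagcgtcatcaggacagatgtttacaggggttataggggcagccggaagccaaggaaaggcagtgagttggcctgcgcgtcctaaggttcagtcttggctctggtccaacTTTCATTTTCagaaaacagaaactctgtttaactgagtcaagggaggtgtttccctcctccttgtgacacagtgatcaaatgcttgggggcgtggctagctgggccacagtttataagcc
Isg15 had 3 overlapping matches from base -78 to -57, and Rsad2 had 1, on the other strand, from -120 to -111. Over all windows of this length, 2.98% held the letters. The window of Ube2l6 held none, and neither did those of the other 5 genes that rose and have one. Of 10 genes that fell and have a window, that of Alg1 held them.

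The rest of the interferon list gave no further call. Of 19 genes tested 2 rose, Isg15 and Rsad2, and none fell, while Ube2l6 and Gbp10 are not on it. The log2 fold change was positive in 18 (median 0.38), and 10 of these had an unadjusted p under 0.05. Ifi44 stood at 0.688, 1.02 and 1.15 CPM in HbAA-BERK mice and at 1.28, 1.67 and 2.27 CPM in HbSS-BERK mice, with no overlap (log2 fold change 0.86, SE 0.20, edgeR adjusted p = 0.169). Cxcl10, an interferon-induced chemokine, gave 0.26 (adjusted p = 0.929). Cxcl11, a chemokine of the same receptor, went the other way, at 1.1, 1.7 and 3.1 CPM against 0.0665, 0.304 and 1.08 CPM (log2 fold change -2.16, SE 0.46, adjusted p = 0.104). Its groups did not overlap.

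Vwf, the factor that endothelium releases to catch platelets, had the smallest adjusted p among the genes that rose. It stood at 40.3, 48.1 and 54 CPM in HbAA-BERK mice and at 74.5, 84.8 and 115 CPM in HbSS-BERK mice. The 6 HbSS-BERK mice lay above all 7 controls, and replicate 6 lay above the next HbSS-BERK mouse, at 88.9 CPM. The log2 fold change was 0.89 (SE 0.10, edgeR adjusted p = 0.00273), 0.86 without HbAA-BERK replicate 2 and 0.80 (SE 0.08) without HbSS-BERK replicate 6. All 12 endothelial genes had a positive log2 fold change (median 0.36), 7 had an unadjusted p under 0.05, and Vwf alone was called. Other cell type lists leaned the same way without a call: 10 of 10 fibroblast and collagen genes (median 0.27, 4 at an unadjusted p under 0.05), 10 of 10 myelinating Schwann cell genes (median 0.13) and 11 of 12 macrophage genes (median 0.39) were positive. Of 12 sensory neuron genes 0 were positive (median -0.12). Kdr, the main receptor of vascular endothelial growth factor, stood at 9.65, 10.1 and 14.3 CPM and at 14.9, 16.8 and 22.4 CPM, with no overlap (log2 fold change 0.69, SE 0.13, adjusted p = 0.0507). Cdh5 and Pecam1, junction proteins of endothelium, gave 0.31 and 0.28 (adjusted p = 0.393 and 0.63). The endothelial markers summed to between 264 and 395 CPM in controls and between 317 and 501 CPM in sickle mice, and the part of these cells in the Vwf result was not tested.

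Of 8 genes of endothelial activation none was called, 6 had a positive log2 fold change, and at an unadjusted p under 0.05 there were 4 higher and 1 lower. Selp, the selectin that platelets and endothelium show after stimulation, stood at 0.815, 1.04 and 1.84 CPM in HbAA-BERK mice and at 1.4, 1.93 and 5.08 CPM in HbSS-BERK mice (log2 fold change 1.16, SE 0.31, edgeR adjusted p = 0.213). Sele, Edn1 and Vcam1 gave 1.23, 0.58 and 0.48, each at an adjusted p above 0.4, and Ackr1, the chemokine receptor of venules, gave -0.10.

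A lipid enzyme pair completes the higher side with Zfp605. Mgll, which breaks down the endocannabinoid arachidonoylglycerol, stood at 115, 130 and 179 CPM in HbAA-BERK mice and at 180, 213 and 245 CPM in HbSS-BERK mice. The groups came close but did not overlap, and the log2 fold change was 0.62 (SE 0.11, edgeR adjusted p = 0.0439). It was the only call among 12 opioid and cannabinoid genes tested, where the enkephalin precursor gene Penk gave -0.80 (adjusted p = 0.334) and the receptor gene Cnr1 gave -0.16 (adjusted p = 0.936). Pla2g2d, a secreted phospholipase, stood at 1.01, 1.38 and 2.22 CPM and at 2.73, 3.31 and 4.88 CPM (log2 fold change 1.28, SE 0.22, adjusted p = 0.0418). Zfp605, a zinc finger gene, stood at 11.8, 14.8 and 27.8 CPM in HbAA-BERK mice and at 38.3, 40.9 and 48 CPM in HbSS-BERK mice (log2 fold change 1.17, SE 0.20, adjusted p = 0.0418). Its controls differed by library number, with 11.8 to 14.8 CPM in replicates 1 to 4 and 25 to 27.8 CPM in replicates 5 to 7, and HbSS-BERK mice lay above both.

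The 2 strongest falls were zinc finger genes that lie side by side on chromosome 2. Gm14295 (chr2:176798179-176814092, RefSeq GRCm38.p6) stood at 1.67, 2.38 and 4.56 CPM in HbAA-BERK mice, with 334 reads in 7 libraries. In HbSS-BERK mice it had 3 reads in 2 of 6 libraries, and the highest was 0.133 CPM. Over the groups this made the HbAA-BERK level 98.3-fold higher, with a 95% counting interval from 33.3 to 479 (exact Clopper-Pearson, counting error only). The edgeR log2 fold change was -6.28 (SE 0.55, adjusted p = 0.000189). Gm14305 (chr2:176708353-176721813), whose start lies 89.8 kb away, stood at 2.19, 3.5 and 6.91 CPM and at 0, 0.0581 and 0.478 CPM (log2 fold change -4.69, SE 0.56, adjusted p = 0.00273). The 2 genes are copies: 35.6% of the stretches of 50 bases in the transcripts of Gm14295 also occur in those of Gm14305 (44.2% the other way round, GENCODE M21), so reads could be split between them and each value is uncertain. Of 9 zinc finger genes of this neighbourhood that were tested, these 2 fell and none rose. Gm14325 stood at 26.9 and 29.4 CPM in the medians of the 2 groups (log2 fold change 0.13, adjusted p = 0.735). Another call, Phactr3, a regulator of protein phosphatase and actin, lies 1321 kb from Gm14295 and fell by 0.37 on the log2 scale (SE 0.06, adjusted p = 0.0418). Its change was the smallest among the 24, with 35.9, 38.5 and 43.5 CPM in HbAA-BERK mice and 28.3, 30.7 and 32.2 CPM in HbSS-BERK mice.

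Called genes lay near each other elsewhere too. Of 23 called genes with a position in RefSeq, 9 had another called gene within 5 Mb, while 7.79% of 14575 placed tested genes had a called gene that near. On chromosome 13 Nnt, the mitochondrial transhydrogenase that makes NADPH and that is known to be broken in the C57BL/6J substrain, starts 288 kb from Ccl28, a chemokine of mucosal surfaces. Nnt (chr13:119335527-119409257) stood at 28, 37.5 and 46.8 CPM in HbAA-BERK mice and at 19.2, 21.5 and 27.6 CPM in HbSS-BERK mice (log2 fold change -0.73, SE 0.12, edgeR adjusted p = 0.0322). Ccl28 stood at 1.98, 4.9 and 6.15 CPM and at 0.111, 0.342 and 1.99 CPM (log2 fold change -2.86, SE 0.51, adjusted p = 0.0439). In Ccl28 the groups met at 1 mouse, HbSS-BERK replicate 1. Of the 18 other tested genes within 5 Mb of Nnt, 6 had an unadjusted p under 0.05, 5 of them lower.

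On chromosome 5, Coq2, Gbp10, Hfm1 and Zfp605 follow each other, and here 2 fell and 2 rose. Coq2, an enzyme of ubiquinone synthesis, stood at 68.3, 71.6 and 80.6 CPM in HbAA-BERK mice and at 46.7, 54.3 and 62.5 CPM in HbSS-BERK mice (log2 fold change -0.44, SE 0.08, edgeR adjusted p = 0.0418). Hfm1, a helicase of meiosis, stood at 1.52, 3.07 and 4.89 CPM and at 0.657, 0.977 and 1.54 CPM (log2 fold change -1.59, SE 0.28, adjusted p = 0.0418). Hfm1 overlapped between the groups by a narrow margin. The start of Gbp10 lies 4561 kb from that of Coq2 and 1624 kb from that of Hfm1, and Zfp605 starts 3270 kb from Hfm1.

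The other genes that fell are of varied roles. The long non-coding RNA A930005H10Rik stood at 21.3, 30.5 and 42.1 CPM in HbAA-BERK mice and at 9.96, 11.9 and 17.3 CPM in HbSS-BERK mice (log2 fold change -1.34, SE 0.16, edgeR adjusted p = 0.00273). Phtf1, a membrane protein first named as a putative transcription factor, stood at 55.4, 69.2 and 97 CPM and at 33.1, 37.5 and 40.7 CPM (log2 fold change -1.02, SE 0.13, adjusted p = 0.00329). Alg1, which adds the first mannose in the making of N-glycans, stood at 29.9, 33.5 and 37.2 CPM and at 17.8, 21.2 and 24.4 CPM (log2 fold change -0.66, SE 0.09, adjusted p = 0.00681). None of these 3 overlapped between the groups, and all 3 were called without HbAA-BERK replicate 2. B3gat2, a glucuronyltransferase of cell surface glycans, fell by 0.79 on the log2 scale (SE 0.14), from a median of 2.61 to one of 1.53 CPM. Fam205c fell from a median of 3.65 to one of 0.454 CPM, with HbSS-BERK replicate 3 at 1.85 CPM. Gm7120 fell from a median of 18.4 to one of 5.76 CPM, with HbAA-BERK replicate 4 at 35.8 CPM and HbSS-BERK replicate 1, at 11.3 CPM, within the range of the controls.

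Serpina3g, an intracellular serpin that inhibits cathepsins, was also a gene of the RT-qPCR done with other mice. It stood at 68.9, 95.6 and 118 CPM in HbAA-BERK mice and at 34.4, 43.9 and 70.6 CPM in HbSS-BERK mice. HbSS-BERK replicate 1 alone lay within the range of the controls. The log2 fold change was -0.97 (SE 0.18, edgeR adjusted p = 0.0439), and an exact two-sided permutation test of log2 CPM gave p = 0.00117, where 1716 splits allow no less than 0.000583. Serpina1e, a mouse form of the elastase inhibitor antitrypsin made by liver, stood at 1.9, 3.92 and 58.5 CPM and at 0.11, 0.126 and 2.59 CPM. The 58.5 CPM were those of HbAA-BERK replicate 2, the library with Alb, and the next control held 5.67 CPM. It was not called (log2 fold change -4.47, SE 1.07, adjusted p = 0.173, exact permutation p = 0.00175), and the estimate moved to -2.91 (SE 0.69, adjusted p = 0.226) without that library and to -6.40 (adjusted p = 0.0537) without HbSS-BERK replicate 1. By the study's own edgeR analysis with Bonferroni correction, Serpina3g and Serpina1e were lower in HbSS-BERK mice in this comparison. Sprr1a was not differential there. Sprr1a, also of the RT-qPCR, is described with the nerve injury genes. The permutation p-values of these 3 genes are unadjusted.

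Genes that sensory neurons switch on after nerve injury were high in some HbSS-BERK mice and not in others. Sprr1a, a cornified envelope protein made by axotomized neurons, stood at 0.543, 0.921 and 7.08 CPM in HbAA-BERK mice and at 0.61, 7.95 and 116 CPM in HbSS-BERK mice. HbSS-BERK replicates 1, 5 and 6 held 53.8, 12.4 and 116 CPM, above every control, while replicates 2, 3 and 4 held 1.35, 3.52 and 0.61 CPM. The log2 fold change was 4.11 (SE 1.07, edgeR adjusted p = 0.209, exact permutation p = 0.049). DESeq2 and the edgeR exact test called it (adjusted p = 0.0136 and 0.0147), and so did the fit of all 8 groups (0.049). Atf3, the transcription factor that marks injured neurons, stood at 10.6, 14.9 and 25.7 CPM and at 11.7, 33.2 and 107 CPM (log2 fold change 1.63, SE 0.49, adjusted p = 0.307). The peptidase gene Ecel1 and the neuropeptide gene Nts gave 2.60 and 1.77 (adjusted p = 0.227 and 0.192). Of 13 injury genes tested none was called, all 13 had a positive log2 fold change (median 1.30), and 8 had an unadjusted p under 0.05. The summed list was 981, 578 and 1130 CPM in HbSS-BERK replicates 1, 5 and 6, and 370 to 483 CPM in the other 10 libraries. High mice also occurred among HbAA-BERK mice of the same age in normoxia. There Sprr1a ran from 1.39 to 60 CPM and Atf3 from 11.7 to 123.5 CPM, scaled over all 48 libraries.

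The neuron and glia lists held no call. Of 12 sensory neuron, 15 nociceptor, 10 myelinating Schwann cell and 10 satellite glia genes tested, 0 were called by edgeR, with 0, 1, 0 and 0 at an unadjusted p under 0.05. That 1 was Mrgprd, a receptor of nonpeptidergic nociceptors (log2 fold change -0.63, SE 0.19, adjusted p = 0.313). The nociceptor sodium channel gene Scn10a had medians of 933 and 848 CPM in HbAA-BERK and HbSS-BERK mice (log2 fold change -0.16, adjusted p = 0.875). Of 11 neuropeptide genes tested none was called, and 3 had an unadjusted p under 0.05. Of 18 targets of hypoxia-inducible factor and 14 immediate early genes, 0 were called, with 3 and 2 at an unadjusted p under 0.05, all higher. The smallest adjusted p of the hypoxia targets was that of the mitophagy receptor gene Bnip3l (log2 fold change 0.40, SE 0.10, adjusted p = 0.197). The heat shock list gave a median of -0.24 over 11 genes, with 0 calls and 3 unadjusted p under 0.05, all lower. Neutrophil, mast cell, platelet and B cell lists held 0 calls and 0 genes at an unadjusted p under 0.05. Skeletal muscle markers summed to between 343 and 4930 CPM in controls, with replicate 2 highest, and between 748 and 2273 CPM in sickle mice.

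The 24 genes were then followed in the 3 other genotype comparisons, which used other mice. All 24 had the same sign in each, namely the younger mice in normoxia and the older mice without and with H/R, against 65.6%, 60.2% and 54.3% of all genes tested in both. Leaving out the controls over 20 CPM of Alb, this held for 23. Of the 24, 14 were also called at 2 months in normoxia (58.3% of the 24, and 5.96% of the 235 calls there), 13 in the older mice without H/R (54.2%, and 8.5% of 153) and 12 in those with it (50%, and 3.41% of 352). The share of all genes called there was 1.55% (1.26% higher and 0.291% lower), 1% (0.589% and 0.412%) and 2.31% (1.62% and 0.696%), in the same order. Called in all 4 comparisons were 8 genes, Hba-x, Alas2, Rsad2, Ube2l6, Phtf1, Hfm1, Serpina3g and Gm7120. Called at 2 months after H/R alone, a difference tested by the interactions, were 6, Gm14295, Gm14305, Vwf, Phactr3, Pla2g2d and Fam205c.

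**Figure D3:**
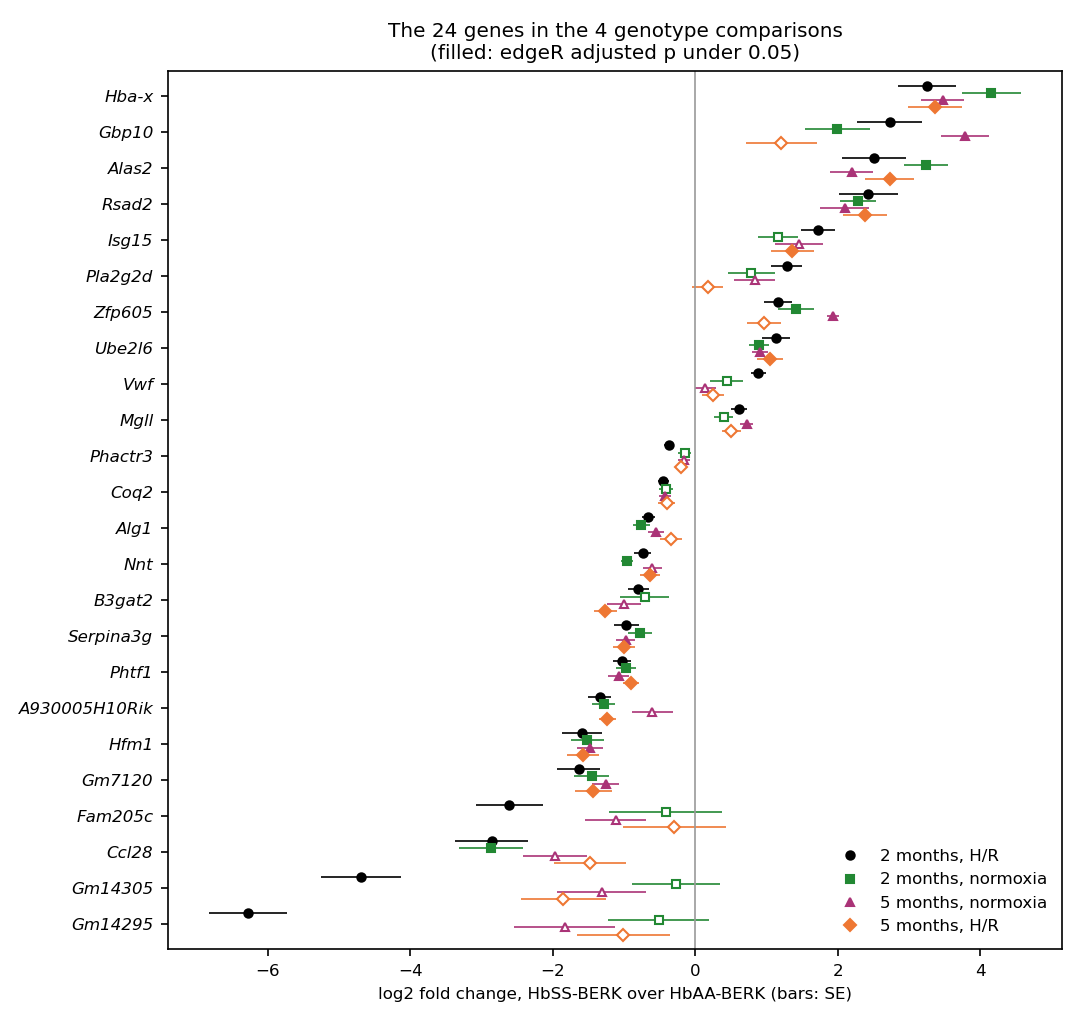
Each row is 1 of the 24 genes, and the 4 symbols are its log2 fold change of HbSS-BERK over HbAA-BERK mice, with SE, in the 4 genotype comparisons. Filled symbols passed an edgeR adjusted p of 0.05. All symbols of a row lie on the same side of 0, and Gm14295, Gm14305 and Fam205c are the rows where the black circle lies farthest from the others.

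Whether the genotype difference itself changed with H/R was tested by an interaction at 2 months (HbSS-BERK over HbAA-BERK after H/R, less the same in normoxia). No gene was called among 15544 tested by edgeR (0%), the smallest adjusted p was 0.62, 333 genes (2.14%) had an unadjusted p under 0.05, and DESeq2 called 7. The 6 genes called only here are therefore not shown to differ between the treatments. Of the 24 genotype calls, 4 had an unadjusted edgeR p under 0.05 for this interaction, but they were selected in libraries that it also uses. The largest interactions among the 24 were those of Gm14295 (-5.76, SE 1.21) and Gm14305 (-4.41, SE 0.95), both at an adjusted p of 0.62. In normoxia at 2 months their log2 fold changes were -0.51 (SE 0.70) and -0.27. In the older mice Gm14295 gave -1.83 without and -1.01 with H/R. HbSS-BERK mice of these groups spread widely (CPM scaled over all 48 libraries). Gm14295 ran from 0 to 4.52 CPM in the younger normoxic mice, and from 0 to 2.65 and 0 to 4.33 CPM in the older mice without and with H/R. Gm14305 ran from 0.192 to 6.39, 0.054 to 4.22 and 0.0523 to 4.04 CPM, in the same order. Some sickle mice outside the 2 months H/R group thus also lay near 0 CPM. The interaction of Vwf was 0.45 (SE 0.25, unadjusted p = 0.0881), and its log2 fold change was 0.44 (SE 0.23) in the younger normoxic mice and 0.14 and 0.25 in the older mice without and with H/R.

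Of the 20 erythroid genes, 17 rose at 2 months in normoxia, with a median log2 fold change of 3.08, against 1 and 1.47 after H/R. No interaction passed, so the lists do not show that red cell genes responded differently to the treatment. At 5 months 17 rose after H/R (median 2.53) and 4 in normoxia (median 1.47). Hba-x gave log2 fold changes of 4.16 at 2 months in normoxia, and in the older mice of 3.48 without H/R and 3.36 with it. Nerve injury genes had a median of -1.24 at 2 months in normoxia, 1.30 at 2 months after H/R, and in the older mice of -0.39 without H/R and -1.68 with it, where 5 fell. At 2 months the interaction with H/R was 6.96 (SE 1.59) for Sprr1a and 4.42 (SE 1.06) for Ecel1. For Atf3 it was 3.16 (SE 0.78) and for Nts 3.02 (SE 0.69). Their unadjusted edgeR p ran from 0.000199 to 0.000455. None was called (edgeR adjusted p = 0.62, 0.747, 0.873 and 0.62, in that order).

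The interaction with age after H/R (HbSS-BERK over HbAA-BERK at 2 months, less the same at 5 months) called 7 of 15618 genes (0.0448%), 6 with a positive interaction (0.0384%) and 1 with a negative one (0.0064%), and 4 of them were injury genes. Sprr1a had an interaction of 10.11 (SE 1.63, edgeR adjusted p = 0.025), with -5.99 (SE 1.04) at 5 months. Ecel1 (6.43, SE 1.10, adjusted p = 0.025), Atf3 (4.31, SE 0.74, adjusted p = 0.025) and Nts (3.81, SE 0.67, adjusted p = 0.0296) also had positive interactions. Scaled over all 48 libraries, Sprr1a had medians of 0.915 and 8 CPM in HbAA-BERK and HbSS-BERK mice at 2 months and of 20.2 and 0.273 CPM at 5 months. The other calls were Wfdc3 (4.64, SE 0.89, adjusted p = 0.0482), Ddr2, a collagen receptor (0.71, SE 0.13, adjusted p = 0.0443), and Camk2b, a calmodulin kinase of neurons (-0.61, SE 0.11, adjusted p = 0.0349). None of the 24 genotype calls was among them, and the smallest adjusted p of the 24 was 0.116. At an unadjusted p under 0.05 by the same edgeR test were 7 of the 24, against 8% of all genes. The 24 were selected in libraries that this interaction also uses, so the share is no independent check.

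The calls, though not the size of the differences, depended on single mice. Without the 3 H/R controls over 20 CPM of Alb, 1 at 2 months and 2 at 5 months, none was called, Sprr1a gave 10.37 (SE 1.76, edgeR adjusted p = 0.0638), and Ecel1, Atf3 and Nts gave 6.72, 4.55 and 4.04 at the same adjusted p. Leaving out 1 mouse gave 0 to 14 calls, while the interaction stayed between 8.98 and 11.15 for Sprr1a (adjusted p at most 0.063), 5.73 and 6.87 for Ecel1, 3.52 and 4.53 for Atf3, and 3.35 and 4.04 for Nts. None was left when the mouse was 1 of the younger controls 2, 3, 5 and 6, the younger sickle mice 1 and 6 or the older sickle mice 2, 3, 5 and 6. There were 4 without replicate 4 of either control group, 11 without HbSS-BERK replicate 2 at 2 months or HbAA-BERK replicate 3 at 5 months, and 14 without HbSS-BERK replicate 4 at 2 months.

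**Figure D4:**
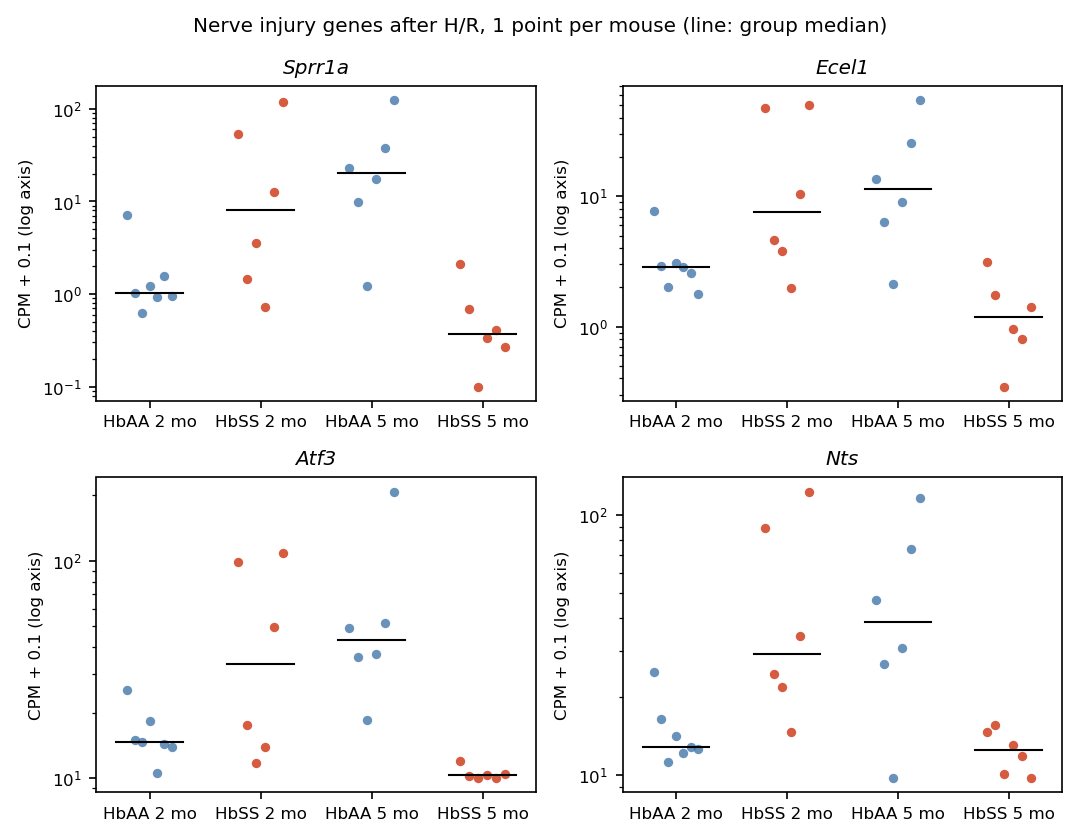
Each point is 1 mouse after H/R, at its CPM + 0.1 on a log axis, for Sprr1a, Ecel1, Atf3 and Nts, and lines are group medians (blue HbAA-BERK, red HbSS-BERK). At 2 months 3 HbSS-BERK mice hold more Sprr1a than any control, while at 5 months the HbAA-BERK median, 20.2 CPM, lies far above the HbSS-BERK median, 0.273 CPM.

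The count of calls moved with the method more than with the scaling. RLE scaling called 26 genes and no filter on low counts 27, while the edgeR exact test called 107, DESeq2 148 and a fit of all 8 groups 139. Of the 24 genes, 24 were also called by the exact test, 23 by DESeq2 and 22 by the fit of all groups. The first principal component (31.5% of the variance) went with the library numbers: controls 1 to 4 and sickle mice 1 to 3 lay between -41.3 and -2.69, and the rest between -6.04 and 39.3. With that run of numbers as a term 51 genes were called, all 24 among them. Within each run all 24 kept their sign, but they were selected in these same libraries, so this is no independent check. A Bonferroni limit of 0.05 with a change of 2-fold or more left 5 genes (0.0329%), 1 higher and 4 lower.

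**Figure D5:**
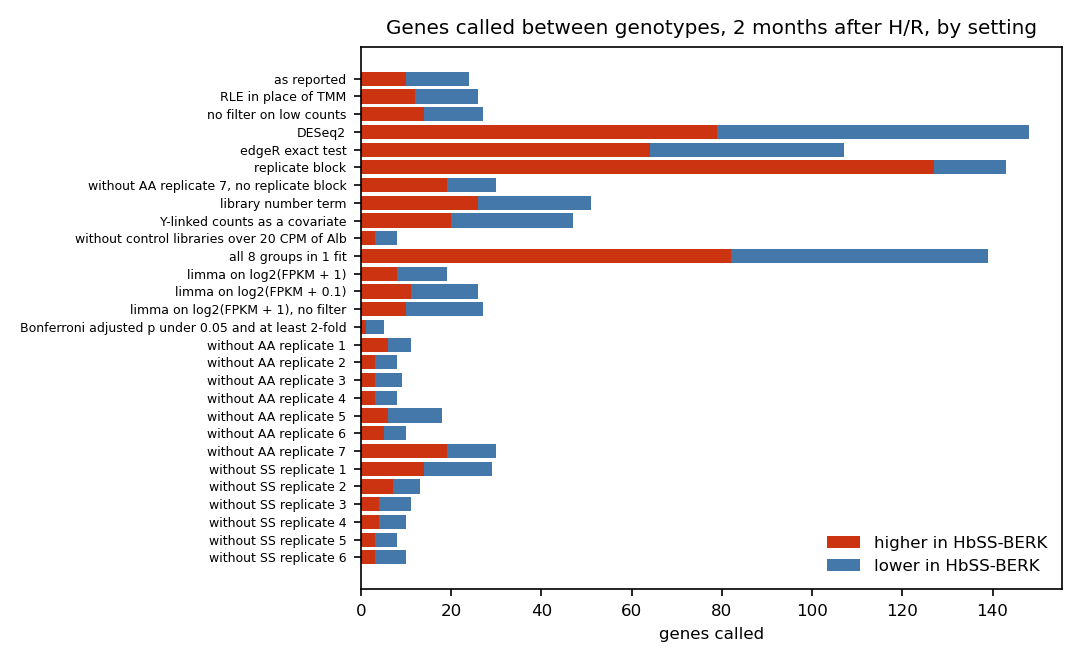
Bars give the genes called higher (red) and lower (blue) in HbSS-BERK mice under each setting, where AA is HbAA-BERK and SS is HbSS-BERK. The setting as reported has 24 genes, the settings that leave out 1 mouse have 8 to 30, and DESeq2 has the most, 148.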

How the data were processed

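DRG RNA was sequenced as poly(A) libraries of paired reads. The deposited raw read counts per gene were made by the authors with featureCounts, whose version, annotation, strand setting and handling of shared reads are not given in the sources used here, from reads aligned to mm10 (TopHat2 2.0.13 and Bowtie2 2.2.4.0 per the submitters' processing notes). FPKM, which the authors computed with cuffquant and cuffnorm, served as an alternative only. Of 24420 rows, 27 carry a date in place of a gene name (0.237% to 0.261% of a library's counts) and were left out. No other measurement column was used, and 1 column headed with an age of no group was left out.

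Groups were compared with edgeR 4.0.16 (TMM factors, filterByExpr, quasi-likelihood test, R 4.3.3), which reads depth from library totals. The SE is the log2 fold change over the root of F. CPM is the count over the effective library size. The common biological coefficient of variation was 0.208. Chi-square per gene between libraries of a group was 8.88 to 84.6, so all pairs differed by more than sampling noise. Alternatives used DESeq2 1.42.0, the edgeR exact test, limma 3.58.1 on log2(FPKM + 1) or + 0.1 for a mean of at least 0.5 FPKM, RLE, no filter, the library number as a block or a run as a term, Y-linked counts as a covariate, and libraries left out. Leaving out each mouse in the age interaction was chosen after seeing the data. Genes named were every called gene, the erythroid, globin and RT-qPCR genes, up to 4 called genes of each of 40 lists with its most abundant gene, and up to 6 per interaction, with the seventh interaction gene, further list members, non-overlapping genes and neighbours chosen after their values were seen. The members and lists were chosen with earlier results of these data known. The edgeR quasi-likelihood fits were tested on simulated data, with the same spread given to every gene and no outlying mice. In the genotype comparison (15273 genes), 47 of 50 genes raised 2-fold and 48 of 50 lowered 2-fold were recovered. The interaction with H/R (15500 genes) gave 35 and 38 of 50, and that with age (15606 genes) 35 and 36 of 50. Genes that vary more between mice were not simulated, so these shares do not carry over to them. Positions and promoters came from RefSeq (GRCm38.p6).

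Replicate numbers are shared between the genotypes, and no source says that they mark a litter or day. Deviations from the group means correlated between same-numbered libraries at 0.168, 0.367, 0.422, -0.544, 0.351 and 0.102 for numbers 1 to 6. Only number 4 was negative. With no source for pairs and 2 of 6 libraries correlating best with their own number, the numbers were not taken as pairs, though shared structure by number remains possible. Values of some genes are not reported here.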

Additional observations from a re-analysis of the deposited data

Results flagged for a closer look

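Among 54 sets of values tested (27 genes in 2 groups), 10 held a mouse set far from the rest of its group. All 10 were the highest value of their group, and Alb had already set its library apart. The nominal chance rate of about 1 in 20 may not hold for such CPM values, so the 10 are not read as an excess. HbSS-BERK replicate 2 stood alone in Rsad2 (152 CPM, next 37.6) and Alas2 (570 CPM, next 283). HbAA-BERK replicate 2 stood alone in Alb (338 CPM, next 6.25) and Serpina1e (58.5 CPM, next 5.67). HbSS-BERK replicate 1 stood alone in Ccl28 (1.99 CPM, next 0.603) and Serpina1e (2.59 CPM, next 0.184). The others were Vwf in HbSS-BERK replicate 6 (115 CPM, next 88.9), Fam205c in HbSS-BERK replicate 3 (1.85 CPM, next 0.465), Gm7120 in HbAA-BERK replicate 4 (35.8 CPM, next 19.8) and Sprr1a in HbAA-BERK replicate 1 (7.08 CPM, next 1.48).

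The genotype difference after H/R changed with age in 7 genes by the edgeR interaction test, as the log2 difference at 2 months less that at 5 months. It was 10.11 for Sprr1a, 6.43 for Ecel1, 4.31 for Atf3, 3.81 for Nts, 4.64 for Wfdc3, 0.71 for Ddr2 and -0.61 for Camk2b. Without the controls over 20 CPM of Alb none passed the threshold, with interactions of 10.37 for Sprr1a, 6.72 for Ecel1, 4.55 for Atf3 and 4.04 for Nts (edgeR adjusted p = 0.0638 for each).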

How the results depend on the processing

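All 24 genes called between the genotypes kept their direction under every alternative in which they were tested. Counts of calls that differed from the 24 by over 1.5 times were 148 with DESeq2, 107 with the edgeR exact test, 139 with all 8 groups in 1 fit, 51 with the run of library numbers as a term, 47 with Y-linked counts as a covariate, 8 without the control over 20 CPM of Alb and 5 at the Bonferroni limit with a 2-fold change. Leaving out 1 mouse gave 8 to 30. With the library number as a block, which leaves out HbAA-BERK replicate 7, 143 genes were called, 127 higher and 16 lower, 20 of the 24 among them, against 30 with those libraries and no block. Not every pair correlated above 0.1 (number 4 gave -0.544), and 2 of 6 libraries correlated best with their own number. A call gained or lost under the block therefore does not show whether the numbers mark pairs. RLE gave 26 calls, no filter 27, and limma on FPKM 19 to 27. The interaction with H/R at 2 months had 0 calls under each alternative apart from DESeq2, with 7. The interaction with age after H/R had 56 calls with DESeq2, 34 with the replicate block, 10 with the run of numbers as a term and 0 without the controls over 20 CPM of Alb, and 0 to 14 with 1 mouse left out. Of the other named genes, Add2 alone turned its sign, with -0.15 to 0.02 when 1 mouse was left out (0.0242 without HbSS-BERK replicate 4). The cause of these differences was not tested. Gbp10 had 25 reads over the 7 control libraries, which limits its fold change.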

Other observations

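Genes of the body clock were not described above. Of 12 tested none was called, and the median log2 fold change was -0.08. Npas2, a partner in the clock's activating complex, stood at 3.3, 4.84 and 5.35 CPM (lowest, median and highest) in HbAA-BERK mice and at 1.66, 2.25 and 3.25 CPM in HbSS-BERK mice, with no overlap between the groups (log2 fold change -0.90, SE 0.18, edgeR adjusted p = 0.0882). Ciart gave -0.51 (adjusted p = 0.567), Per3 0.25 (0.7695) and Dbp -0.23 (0.7945) by the same test. The hour at which the ganglia were taken is not given in the sources used here.

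Capza1, a cap of actin filaments that starts 855 kb from Phtf1 on chromosome 3, missed the threshold with a log2 fold change of -1.004 (edgeR adjusted p = 0.0579).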
